A study of Gallus gallus with 12 samples.

Results

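A set of 10 genes that are switched on by fibroblast growth factor (FGF) and ERK signalling, or that damp it, were followed through the forming Müllerian duct of the chicken embryo. They were SPRY1, SPRY2, SPRY4, SPRED1, SPRED2, DUSP6, IL17RD, ETV1, ETV4 and ETV5, chosen by symbol. All 10 were found once among 17485 protein coding genes, in a count table of 24121 genes. The rule used no measured value, but the set was chosen with earlier results of these data known.

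RNA was sequenced from 4 tissues with 3 libraries each, all from unmodified Hy-Line Brown embryos of both sexes, which were not separated. E4.5-Ant was the anterior part of the paired urogenital system at embryonic day 4.5 (5 embryos pooled per library), which holds mesonephros and mesentery as well as the coelomic epithelium in which the duct is specified. E5.5 duct and E6.5 duct were Müllerian ducts dissected at embryonic day 5.5 (3 embryos per pool) and 6.5 (4 embryos per pool), with their surface epithelium, mesenchyme and inner epithelium together. E4.5-Post, the control, was the remaining posterior part of the urogenital systems from which E4.5-Ant was cut (5 embryos per pool), and holds mesonephros without duct. The E5.5 and E6.5 ducts therefore differ from E4.5-Post in age as well as in tissue, and the 2 differences cannot be told apart. The same holds against E4.5-Ant, which the paper describes as mainly mesonephros. In whole tissue, fewer cells of a type and less RNA per cell cannot be told apart either.

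When an FGF binds its receptor, the adaptor proteins, RAS, RAF and MEK pass the signal on to the kinase ERK. ERK then switches on the PEA3 group of ETS transcription factors (ETV1, ETV4 and ETV5) and, with them, inhibitors that act back on the pathway: Sprouty proteins (SPRY) and Spred proteins (SPRED) on the steps around RAS and RAF, DUSP6 as a phosphatase of ERK itself, and IL17RD (Sef) as a membrane inhibitor of FGF signalling. Their transcripts are widely used in embryos as readouts of where FGF and ERK signalling is active. Phosphorylated ERK was not measured here.

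The libraries held 24235353 to 31373783 reads on genes. In library 2 of E4.5-Ant, 42.1% of the counts lay on rRNA genes, against 0.199% to 1.95% in the others, and it was left out of the tests. The remaining 11 libraries gave each of the 10 genes between 86 reads (the lowest, SPRY4) and 2834 reads (the highest, SPRED2). Levels are given as counts per 1000000 of the TMM-normalised library size (normalised CPM). With 16603 genes tested, a gene was called higher or lower where its edgeR FDR did not exceed 0.05 and its level changed by 1.5-fold or more in either direction (the fold limit). All 10 genes passed the filter on low counts. Library 2 of E5.5 duct also stood apart from the other 2 of its tissue. Its squared differences from them were 29.1 and 35.6 times those of counting noise alone (chi-square per degree of freedom). This ratio was 4.31 to 9.13 in the pairs without it or E4.5-Ant library 2.

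ETV4 had the widest fold change of the 10. It had 20.4 and 25.5 normalised CPM in E4.5-Ant, 42.8, 41.2 and 48.7 in E5.5 duct, and 79.7, 85.2 and 80.2 in E6.5 duct, against 21.9, 24.8 and 23.8 in E4.5-Post. Every E6.5 duct library lay above every E5.5 duct library, and every E5.5 duct library above all E4.5 libraries, while the E4.5 tissues overlapped. The left-out E4.5-Ant library had 16.1. ETV4 was 3.53-fold higher in E6.5 duct than in E4.5-Post (log2FC 1.82 ± 0.09 SE, edgeR FDR 5.8e-10), which put it at the 96.9th percentile of all tested genes. It was also called higher in E5.5 duct than in E4.5-Post (log2FC 0.93 ± 0.09, edgeR FDR 7.3e-07), in E5.5 duct than in E4.5-Ant (log2FC 0.95 ± 0.10, edgeR FDR 5.2e-06) and in E6.5 duct than in E5.5 duct (log2FC 0.89 ± 0.08, edgeR FDR 9.4e-06). Its log2FC in E4.5-Ant relative to E4.5-Post was -0.02, with a 95% interval of -0.22 to 0.17. The gene lies on chromosome 27 from 5957255 to 5972800, on the plus strand (GRCg6a coordinates here and below).

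**Figure D1:**
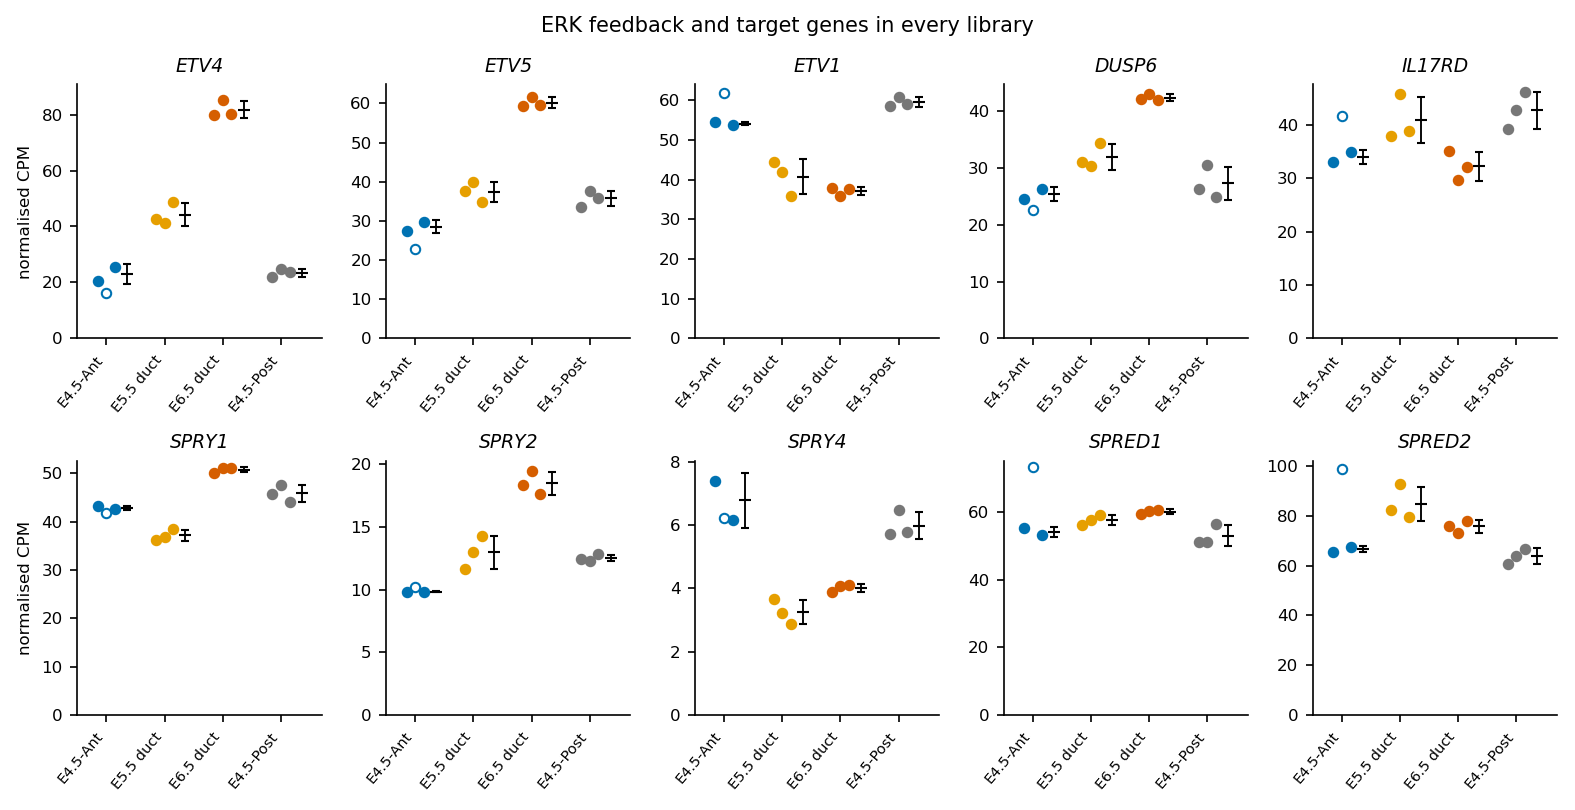
Level of each of the 10 genes in normalised CPM (vertical axis, from 0) in the 12 libraries, by tissue. Filled points are the 11 libraries tested, the open point is the left-out E4.5-Ant library, and the black bars give the mean and SD of the filled points. Among the filled points, ETV4, ETV5, DUSP6, SPRY2, SPRY1 and SPRED1 are highest in E6.5 duct. ETV1 is lowest in the ducts, and SPRY4 stays below 4.1 normalised CPM in both ducts.

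ETV5, another PEA3 gene, rose in E6.5 duct. It had 27.4 and 29.7 normalised CPM in E4.5-Ant, 37.6, 39.9 and 34.8 in E5.5 duct, and 59.3, 61.7 and 59.5 in E6.5 duct, against 33.7, 37.6 and 36.0 in E4.5-Post. The E5.5 ducts overlapped E4.5-Post, and the E6.5 ducts lay above everything else. ETV5 was called higher in E6.5 duct than in E4.5-Post (log2FC 0.78 ± 0.06, edgeR FDR 1.3e-07) and than in E5.5 duct (log2FC 0.70 ± 0.06, edgeR FDR 9.4e-06). For E5.5 duct relative to E4.5-Post the log2FC was 0.08 (95% interval -0.04 to 0.21). In E4.5-Ant it was below E4.5-Post in both libraries, by less than the fold limit (log2FC -0.31 ± 0.07, edgeR FDR 0.0056). ETV5 lies on chromosome 9 from 5289093 to 5299778, on the minus strand.

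ETV1, the third PEA3 gene, went the other way. It had 54.4 and 53.8 normalised CPM in E4.5-Ant, 44.5, 41.9 and 35.8 in E5.5 duct, and 38.0, 36.0 and 37.6 in E6.5 duct, against 58.6, 60.9 and 59.0 in E4.5-Post. All 6 duct libraries lay below all E4.5 libraries, and the E5.5 and E6.5 ducts overlapped. ETV1 was called lower in E6.5 duct than in E4.5-Post (log2FC -0.65 ± 0.07, edgeR FDR 1.5e-06). The log2FC of E5.5 duct relative to E4.5-Post was -0.53 ± 0.07 (edgeR FDR 1.4e-05), which passed the FDR limit and not the fold limit, and without E5.5 duct library 1 it was -0.61 and passed both. The gene lies on chromosome 2 from 27266295 to 27337471, on the minus strand.

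The make-up of the reads on these 3 genes differed between the tissues. Of the reads on the 3 ETV genes, ETV4 took 21.7% ± 2.42 in E4.5-Ant (SD, n = 2), 36.2% ± 4.04 in E5.5 duct, then 45.6% ± 0.85 in E6.5 duct, against 19.8% ± 0.50 in E4.5-Post (SD, n = 3 each). ETV1 took 51.3% ± 2.75 in E4.5-Ant, 33.2% ± 2.89 in E5.5 duct, then 20.8% ± 0.97 in E6.5 duct, against 50.1% ± 1.03 in E4.5-Post. The share of ETV5 varied less, between 27.0% in E4.5-Ant and 33.6% in E6.5 duct. ETV1 gave the most ETV reads in all E4.5 libraries and the fewest in all E6.5 duct libraries. These are shares of reads, which also depend on gene length, so they compare tissues and not the genes with each other. The 3 genes summed to 106 ± 4.9 normalised CPM in E4.5-Ant, 122 ± 2.8 in E5.5 duct, then 179 ± 3.3 in E6.5 duct, against 119 ± 4.5 in E4.5-Post. The sums of E5.5 duct and E4.5-Post overlapped, while their ETV4 shares did not.

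**Figure D2:**
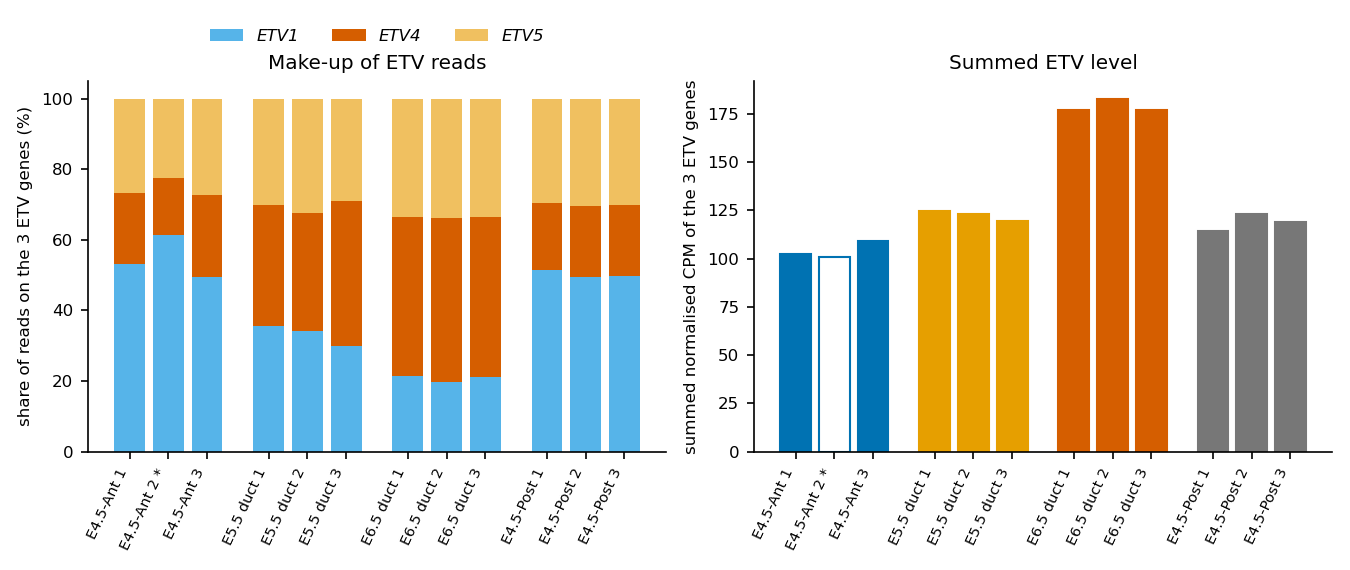
Left, the share of ETV reads (percent) on ETV1, ETV4 and ETV5 in each of the 12 libraries. Right, the summed level of the 3 genes in normalised CPM, with the left-out E4.5-Ant library drawn open and starred. The ETV4 share averages 45.6% in E6.5 duct and 19.8% in E4.5-Post, and the sum stands at 179 normalised CPM in E6.5 duct and 119 in E4.5-Post.

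Among the feedback inhibitors, DUSP6, the phosphatase that removes the activating phosphates from ERK, rose in E6.5 duct. It had 24.6 and 26.3 normalised CPM in E4.5-Ant, 31.0, 30.3 and 34.4 in E5.5 duct, and 42.1, 43.01 and 41.9 in E6.5 duct, against 26.3, 30.5 and 24.9 in E4.5-Post. The E6.5 ducts lay above all other libraries, and 1 E5.5 duct library was below the highest E4.5-Post library. DUSP6 was called higher in E6.5 duct than in E4.5-Post (log2FC 0.66 ± 0.08, edgeR FDR 5.0e-06). The E6.5 ducts exceeded the E5.5 ducts by a log2FC of 0.42 ± 0.08 (edgeR FDR 0.0013), short of the fold limit. DUSP6 lies on chromosome 1 from 43322565 to 43327276, on the minus strand.

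The 3 Sprouty genes differed from each other. SPRY2 had 9.84 and 9.80 normalised CPM in E4.5-Ant, 11.7, 12.98 and 14.2 in E5.5 duct, and 18.3, 19.5 and 17.7 in E6.5 duct, against 12.4, 12.3 and 12.8 in E4.5-Post. E6.5 ducts were the highest and E4.5-Ant the lowest, with E5.5 duct and E4.5-Post overlapping. Its call in E6.5 duct against E4.5-Post sat on the limit: the log2FC was 0.59 ± 0.09 (edgeR FDR 4.8e-05), and it was 0.56 and not called with all 12 libraries. Without E4.5-Post library 1 or 2, E5.5 duct library 1 or E6.5 duct library 2 it was 0.58, 0.57, 0.58 and 0.55, also short of the fold limit. SPRY2 lies on chromosome 1 from 154055377 to 154060716, on the plus strand.

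SPRY4, which had the fewest reads of the 10, fell in E5.5 duct. It had 7.39 and 6.17 normalised CPM in E4.5-Ant, 3.65, 3.24 and 2.88 in E5.5 duct, and 3.87, 4.07 and 4.09 in E6.5 duct, against 5.71, 6.48 and 5.77 in E4.5-Post. All duct libraries lay below all E4.5 libraries, and those of E5.5 lay below those of E6.5. SPRY4 was called lower in E5.5 duct than in E4.5-Post (log2FC -0.86 ± 0.13, edgeR FDR 6.9e-05) and than in E4.5-Ant (log2FC -1.06 ± 0.14, edgeR FDR 6.1e-05). The log2FC of E6.5 duct relative to E4.5-Post was -0.55 ± 0.13 (edgeR FDR 0.0019), short of the fold limit, and -0.59 and called without E4.5-Post library 1. The difference between E6.5 duct and E5.5 duct did not pass the test (log2FC 0.31, 95% interval 0.04 to 0.57, edgeR FDR 0.10). SPRY4 lies on chromosome 13 from 17914292 to 17926312, on the minus strand.

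SPRY1 had its lowest level in E5.5 duct. It had 43.1 and 42.5 normalised CPM in E4.5-Ant, 36.3, 36.8 and 38.5 in E5.5 duct, and 50.1, 51.0 and 51.1 in E6.5 duct, against 45.7, 47.6 and 44.1 in E4.5-Post. None of the 4 tissues overlapped with another. No difference reached the fold limit, the widest being a log2FC of 0.46 ± 0.05 between E6.5 duct and E5.5 duct (edgeR FDR 5.0e-05), followed by -0.29 ± 0.05 for E5.5 duct relative to E4.5-Post (edgeR FDR 0.00034). SPRY1 lies on chromosome 4 from 53356177 to 53362670, on the minus strand, and an uncharacterised locus that overlaps it by 1273 bases on the other strand had at most 3 counts in any library.

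IL17RD, the membrane inhibitor, had lower values in the later duct. It had 33.1 and 35.0 normalised CPM in E4.5-Ant, 37.9, 45.8 and 39.0 in E5.5 duct, and 35.1, 29.7 and 32.1 in E6.5 duct, against 39.3, 42.8 and 46.3 in E4.5-Post. The E6.5 ducts were below the E5.5 ducts and below E4.5-Post, and overlapped E4.5-Ant. The log2FC was -0.33 ± 0.09 for E6.5 duct against E5.5 duct (edgeR FDR 0.012) and -0.38 ± 0.09 for E6.5 duct relative to E4.5-Post (edgeR FDR 0.0017), both short of the fold limit. The gene lies on chromosome 12 from 8946859 to 8989401, on the minus strand.

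The Spred genes, inhibitors of RAF activation by RAS, stayed under the fold limit in all 5 comparisons. SPRED1 had 55.1 and 53.1 normalised CPM in E4.5-Ant, 55.97, 57.5 and 59.0 in E5.5 duct, and 59.4, 60.3 and 60.6 in E6.5 duct, against 51.2, 51.1 and 56.4 in E4.5-Post. SPRED2 had 65.7 and 67.4 in E4.5-Ant, 82.3, 92.7 and 79.5 in E5.5 duct, and 76.1, 73.2 and 78.1 in E6.5 duct, against 60.8, 64.0 and 66.9 in E4.5-Post. All duct libraries exceeded all the E4.5 libraries tested for SPRED2, and SPRED1 showed this for E6.5 duct only. The widest difference was that of SPRED2 in E5.5 duct against E4.5-Post (log2FC 0.42 ± 0.06, edgeR FDR 4.2e-05). The library left out of E4.5-Ant had 73.2 normalised CPM of SPRED1 and 99.0 of SPRED2, above every other library for both genes. With it included, the log2FC of SPRED2 in E5.5 duct against E4.5-Ant was 0.14 (edgeR FDR 0.49), against 0.35 (edgeR FDR 0.0013) without it. SPRED1 lies on chromosome 5 from 30947874 to 31003437 and SPRED2 on chromosome 3 from 10655225 to 10706935, both on the minus strand.

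In the comparison of E4.5-Ant with E4.5-Post, 0 of 10 were called in edgeR, voom or DESeq2. Over all tested genes, 7.7% were called higher and 3.05% lower in edgeR. The paper describes both tissues as mainly mesonephros. A difference confined to the epithelium where the duct is specified could go unseen in this comparison. SPRY2, ETV5 and IL17RD passed the FDR limit and not the fold limit, all with lower values in E4.5-Ant (log2FC -0.34, -0.31 and -0.32, edgeR FDR 0.023, 0.0056 and 0.024). These 3 were also the ones with an unadjusted edgeR p below 0.05. With all 12 libraries, IL17RD overlapped between the 2 tissues and did not pass the FDR limit (edgeR FDR 0.11). The median log2FC of the 10 was -0.09, against -0.02 over all tested genes.

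In E5.5 duct relative to E4.5-Post, 1 of 10 was called higher (ETV4) and 1 lower (SPRY4), beside 14.3% and 6.26% of all tested genes. The median log2FC of the 10 was 0.07, against 0.01 over all tested genes. In a test against the fold limit itself, ETV4 passed and SPRY4 did not (edgeR FDR 0.062). Between E6.5 duct and E4.5-Post, 4 were called higher (ETV4, ETV5, DUSP6 and SPRY2) and 1 lower (ETV1), beside 16.5% and 8.78% of all tested genes. The other 5 passed the FDR limit and not the fold limit, SPRY4 and IL17RD among them with lower values in E6.5 duct. With all 12 libraries, SPRED1 and SPRED2 no longer passed the FDR limit (edgeR FDR 0.15 and 0.13). The share of all tested genes that passed the FDR limit alone is not given here. The median log2FC was 0.24, against 0.01 over all tested genes. In the test against the fold limit itself, ETV4 and ETV5 passed, while DUSP6, SPRY2 and ETV1 did not (edgeR FDR 0.30, 0.89 and 0.29). Both comparisons use the same 3 E4.5-Post libraries.

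E5.5 duct against E4.5-Ant, where tissue as well as age changes, gave 1 gene called higher (ETV4) and 1 called lower (SPRY4). Of all tested genes, 7.8% and 5.22% were called there. Of the other 8 genes, 7 passed the FDR limit alone, SPRY1 and ETV1 among them with lower values in E5.5 duct. With all 12 libraries, SPRED2 and IL17RD no longer passed it (edgeR FDR 0.49 and 0.29). The share of all tested genes that passed the FDR limit alone is not given here, so this count has no background beside it. The median log2FC of the 10 was 0.30, against 0.00 over all tested genes. E6.5 duct against E5.5 duct gave 2 called higher (ETV4 and ETV5) and 0 called lower, beside 4.11% and 3.45% of all tested genes. No gene of the 10 was called lower there by voom or DESeq2 either. Of the genes with an unadjusted edgeR p below 0.05, those with lower values in E6.5 duct were IL17RD and SPRED2. IL17RD passed the FDR limit (edgeR FDR 0.012) and SPRED2 did not (edgeR FDR 0.072). Both genes had their highest E5.5 duct value in library 2, which stood apart from the others. Leaving out 1 library brought their log2FC as near to 0 as -0.24 and -0.09. The median log2FC of the 10 was 0.36, against 0.01 over all tested genes. In the test against the fold limit itself, ETV4 passed and ETV5 did not (edgeR FDR 0.47). In this comparison 7 of the 10 genes had all E6.5 ducts above all E5.5 ducts and 2 (IL17RD and SPRED2) had them all below, which held for 19.7% and 20.8% of all tested genes.

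**Figure D3:**
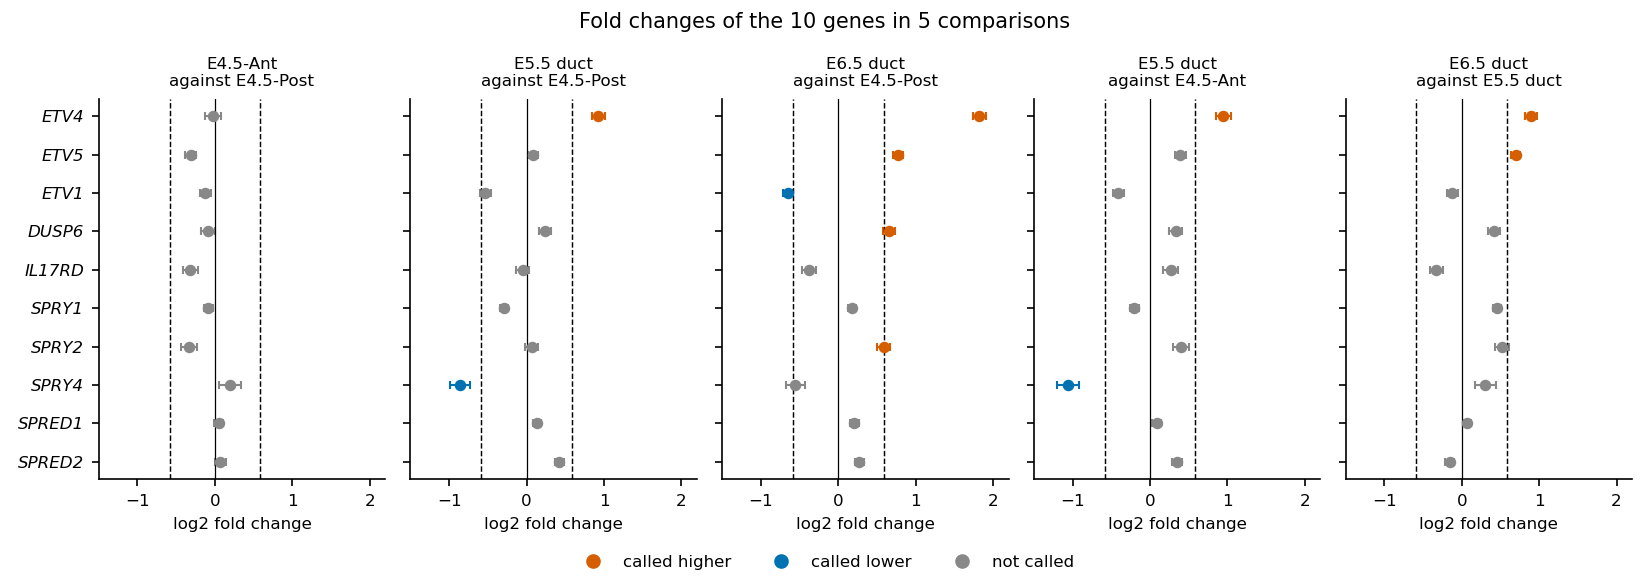
Log2 fold change (horizontal axis) of the 10 genes in the 5 comparisons, with bars of 1 SE. Dashed lines mark the fold limit of 1.5-fold, orange points were called higher and blue points lower. ETV4 is called in 4 of the 5 comparisons and stands at 1.82 in E6.5 duct against E4.5-Post, while nothing is called in E4.5-Ant against E4.5-Post.

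Markers of other cell types differed between the same tissues. Of 11 tested markers of the mesonephric nephron, 1 was called higher and 7 lower in E6.5 duct than in E4.5-Post, and their summed level was 858 to 1217 normalised CPM in E6.5 duct and 2383 to 2957 in E4.5-Post. Of 9 tested markers of the Müllerian duct and its mesenchyme, 7 were called higher and 1 lower, with a sum of 922 to 999 in E6.5 duct and 694 to 736 in E4.5-Post. In E4.5-Ant that sum was 394 to 454, against the same 694 to 736 in E4.5-Post, and 5 of the 9 were called lower. The 9 came from a list of LHX1, PAX2, PAX8, WNT4, EMX2, AMHR2, OSR1, FOXE1, DMRT1 and HOXA10. The paper picked FOXE1 and OSR1 from these same data for their rise in E6.5 duct over E4.5-Post. It also reports DMRT1, EMX2, WNT4 and HOXA10 as rising in them, and LHX1 and PAX2 as enriched, so such calls are no separate evidence. E4.5-Post holds no duct, so the sum did not follow the amount of duct in a tissue. Of 9 tested red blood cell genes, 3 were called higher and 5 lower in E6.5 duct than in E4.5-Post, with sums of 830 to 914 and 2550 to 3294. In the same comparison 9 of 11 skeletal muscle markers and 3 of 6 sclerotome markers were called, all lower. Of 11 endothelial markers 2 were called higher and 4 lower. Of 10 markers of neurons and neural crest 3 were called higher and 1 lower, and of 6 leukocyte markers 1 higher and 1 lower. In E6.5 duct against E5.5 duct, 9 of 11 skeletal muscle markers were called lower (sums of 22.6 to 28.9 in E6.5 duct and 52.5 to 98.6 in E5.5 duct), and of the 11 nephron markers 1 was called higher and 5 lower (sums of 858 to 1217 in E6.5 duct and 1346 to 1618 in E5.5 duct). Of the 9 duct and mesenchyme markers 3 were called there, all higher (sums of 922 to 999 in E6.5 duct and 653 to 709 in E5.5 duct), and of the 9 red blood cell genes 5 were called higher and 3 lower (sums of 830 to 914 in E6.5 duct and 718 to 1151 in E5.5 duct). Between the 2 duct stages 3 sclerotome markers and 1 endothelial marker were called lower in E6.5 duct. Of the markers of neurons and neural crest 2 were called higher there and 1 lower, and of the leukocyte markers 0 were called. Every one of these markers had more than 3 counts in at least 1 library. The part of these cells in the levels of the 10 genes was not tested.

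Over the 11 libraries, DUSP6, SPRY2, ETV4 and ETV5 varied alike. Pearson's r of log2(normalised CPM + 1) was 0.97 between ETV4 and DUSP6, 0.95 between SPRY2 and ETV5, and between 0.89 and 0.97 over all pairs of these 4. ETV1 ran against ETV4 (r = -0.92) and with SPRY4 (r = 0.86). IL17RD had r between -0.51 and 0.45 with the other 9. These correlations describe 11 libraries that share 4 tissues and 1 normalization, and carry no test.

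**Figure D4:**
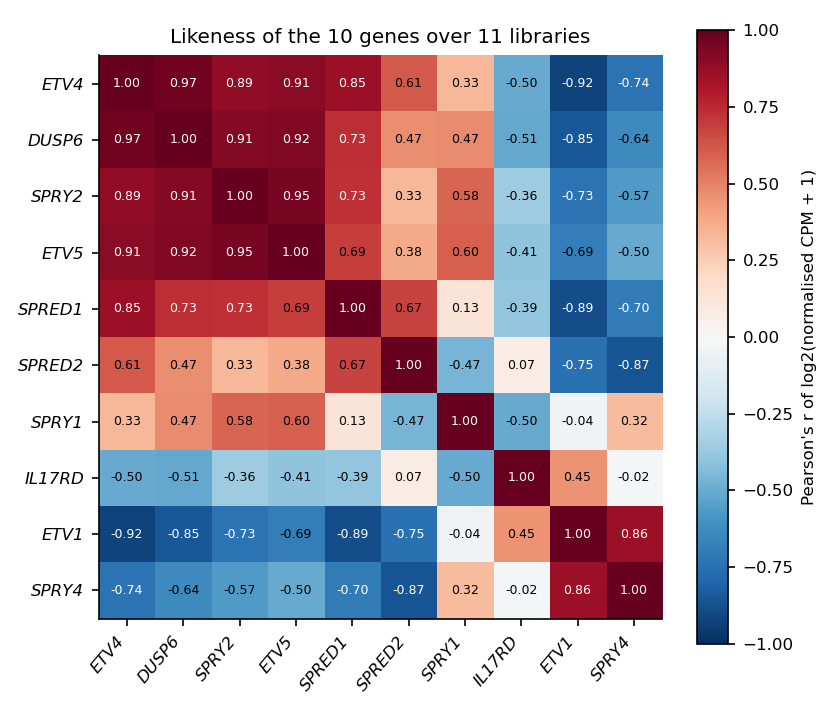
Pearson's r of log2(normalised CPM + 1) between each pair of the 10 genes over 11 libraries, on a colour scale of -1 to 1. The square of high values at the upper left holds ETV4, DUSP6, SPRY2 and ETV5, and ETV1 and SPRY4 stand apart with negative values against it.

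The genes of the whole table whose pattern was nearest to ETV4 were NBL1, a secreted BMP antagonist (r = 0.996), RGMB, a BMP co-receptor (r = 0.994), and NR0B1, a nuclear receptor of the gonad and adrenal gland (r = 0.993). For ETV1 they were RGS8, EDNRB, an endothelin receptor, and SLC28A3, a nucleoside transporter (r = 0.985 to 0.987). For DUSP6 they were SINHCAF, the ETS factor EHF and the hedgehog ligand IHH (r = 0.978 to 0.981). For SPRY4 they were ENDOD1, the smooth muscle protein gene SMTN and the Notch target HEYL (r = 0.980 to 0.983). The nearest gene was CCDC30 for SPRY2 (r = 0.982), EPHB2 for SPRED2 (r = 0.983), SP1 for ETV5 (r = 0.979), LRRN1 for IL17RD (r = 0.968), ARHGAP36 for SPRY1 (r = 0.956) and PRSS56 for SPRED1 (r = 0.949). These were the highest r of all named tested genes in each case, over the same 11 libraries.

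Genes of the same pathway beyond these 10 were taken from lists of its known parts. The list of other feedback and target genes held phosphatases, immediate early genes and ETS factors among others, not all of them particular to ERK. Of its 37 tested genes, 8 were called higher and 4 lower in E6.5 duct than in E4.5-Post, beside 16.5% and 8.78% of all tested genes. EGR1, an immediate early transcription factor, had 8.07 normalised CPM in E6.5 duct and 2.08 in E4.5-Post (log2FC 1.98), and DUSP10, a phosphatase that prefers JNK and p38, had 39.0 in E6.5 duct and 13.96 in E4.5-Post (log2FC 1.51). DUSP5, a nuclear phosphatase of ERK, fell, with 7.16 in E6.5 duct and 16.8 in E4.5-Post (log2FC -1.20), as did the stress-responsive factor ATF3, with 14.8 in E6.5 duct and 34.0 in E4.5-Post (log2FC -1.17). DUSP5 and DUSP6, both phosphatases of ERK, went in opposite directions between these tissues. In E5.5 duct against E4.5-Post, 4 were called higher and 4 lower, beside 14.3% and 6.26% of all tested genes, among them the chromatin protein gene HMGA2 (log2FC 1.25) and again DUSP5 (log2FC -1.12). In E6.5 duct against E5.5 duct, 2 were called, both higher, beside 4.11% of all tested genes called higher: EGR1 (log2FC 0.72) and DUSP4, another nuclear ERK phosphatase (log2FC 0.67).

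The cascade list ran from the receptor adaptors through ERK to RPS6KA2 and RPS6KA3, and also held inhibitors such as NF1, RASA1 and PEBP1. Of its 30 tested genes, 1 was called in either duct stage relative to E4.5-Post. The called gene was higher, beside 14.3% of all tested genes called higher at E5.5 and 16.5% at E6.5. This was KSR2, a scaffold of the RAF, MEK and ERK kinases, which had 1.80 normalised CPM in E6.5 duct and 0.58 in E4.5-Post (log2FC 1.64) and is named here after its values were seen. The median log2FC of the list in E6.5 duct against E4.5-Post was -0.15, against 0.01 over all tested genes.

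Of 13 tested FGF ligand genes, 6 were called higher and 3 lower in E6.5 duct than in E4.5-Post, beside 16.5% and 8.78% of all tested genes. FGF10, a mesenchymal ligand, had 2.58 and 4.86 normalised CPM in E4.5-Ant, 17.8, 23.4 and 23.5 in E5.5 duct, and 26.3, 22.9 and 26.6 in E6.5 duct, against 6.77, 4.13 and 6.77 in E4.5-Post. The ducts were above all E4.5 libraries, and the 2 duct stages overlapped (E6.5 duct relative to E4.5-Post: log2FC 2.13, edgeR FDR 4.4e-07). FGF9, an epithelial or mesothelial ligand in many organs, had 6.64 and 6.09 in E4.5-Ant, 9.99, 11.4 and 11.7 in E5.5 duct, and 17.5, 20.5 and 18.7 in E6.5 duct, against 10.96, 10.3 and 8.67 in E4.5-Post. Relative to E4.5-Post, FGF9 was called lower in E4.5-Ant (log2FC -0.63, edgeR FDR 0.0022) and it was called higher in E6.5 duct than in E5.5 duct (log2FC 0.79, edgeR FDR 0.00015). FGF8, a ligand of the early nephrogenic tissue, had 0.817 and 2.53 in E4.5-Ant, 0.724, 0.654 and 0.402 in E5.5 duct, and 0.544, 0.140 and 0.303 in E6.5 duct, against 5.32, 6.41 and 6.04 in E4.5-Post. All libraries of the other 3 tissues lay below every E4.5-Post library (E6.5 duct relative to E4.5-Post: log2FC -4.10, edgeR FDR 6.2e-07). FGF2 was also called lower in both ducts, with means of 2.40 normalised CPM in E5.5 duct, 1.89 in E6.5 duct and 7.18 in E4.5-Post (log2FC -1.57 and -1.90).

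Of 18 tested FGF receptors and cofactors, 2 were called higher and 3 lower in E6.5 duct than in E4.5-Post, beside 16.5% and 8.78% of all tested genes. FGFR1 had 227 normalised CPM in E6.5 duct and 143 in E4.5-Post (log2FC 0.69). FGFRL1, a receptor without a kinase domain, had 50.01 in E6.5 duct and 170 in E4.5-Post (log2FC -1.74), and the heparan sulphate sulphatase SULF2 had 124 in E6.5 duct and 271 in E4.5-Post (log2FC -1.10). Relative to E4.5-Post, FGFR3 was called higher in E4.5-Ant, with 91.1 there and 46.9 in E4.5-Post (log2FC 0.97). Of 38 tested genes of other receptor tyrosine kinases and their ligands, which also signal through ERK, 13 were called higher and 8 lower in E6.5 duct than in E4.5-Post, beside 16.5% and 8.78% of all tested genes. KIT, the receptor of stem cell factor, had 31.8 in E6.5 duct and 4.12 in E4.5-Post (log2FC 2.97), and NTRK3, a neurotrophin receptor, had 52.4 in E6.5 duct and 7.66 in E4.5-Post (log2FC 2.80). VEGFA fell, with 28.8 in E6.5 duct and 84.5 in E4.5-Post (log2FC -1.53).

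The same lists were also read in E4.5-Ant, where the duct begins, and in E5.5 duct relative to E4.5-Ant. In E4.5-Ant relative to E4.5-Post, 3 of the 37 other feedback and target genes were called, all higher, where 7.7% of all tested genes were called higher and 3.05% lower. Among them was DUSP8 (log2FC 0.92), a phosphatase gene that, like DUSP10, is not particular to ERK. Of the 13 FGF ligands 2 were called higher and 2 lower there, of the 18 receptors and cofactors 2 higher and 1 lower, and of the 38 other receptor tyrosine kinase genes 7 higher and 4 lower, among them RET, the GDNF receptor (log2FC 1.95), and its ligand gene GDNF (log2FC -1.41). In E5.5 duct relative to E4.5-Ant, 2 of the 37 were called higher and 2 lower, and of the FGF ligands 3 higher and 2 lower, FGF10 among them (log2FC 2.55), beside 7.8% and 5.22% of all tested genes. Of the 18 receptors and cofactors 1 was called higher and 4 lower there, and of the 38 other receptor tyrosine kinase genes 7 higher and 6 lower. Of the 30 cascade genes 0 were called in either comparison.

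**Figure D5:**
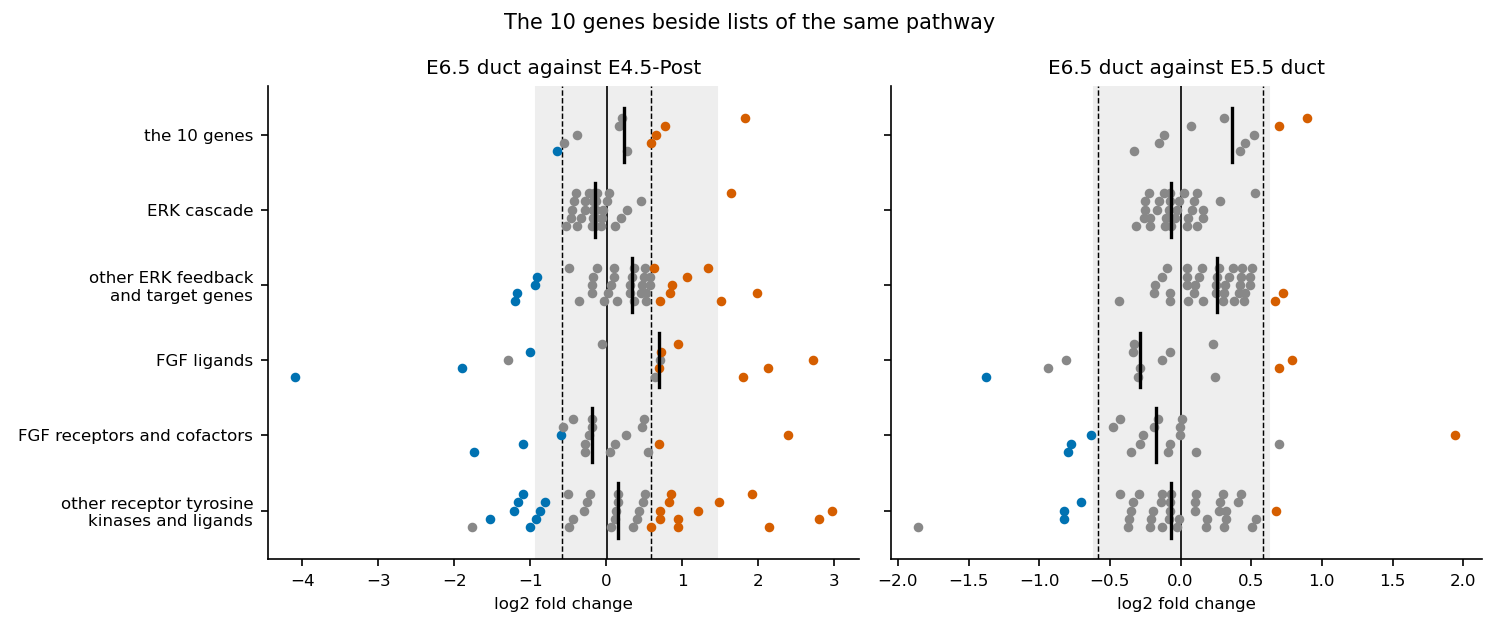
Log2 fold change (horizontal axis) of every tested gene of the 10 and of 5 lists of the same pathway, in E6.5 duct against E4.5-Post (left) and E6.5 duct against E5.5 duct (right). Thick bars are list medians, the grey band holds the middle 90% of all tested genes, and orange and blue points were called higher and lower. The median of the 10 genes stands at 0.24 on the left and 0.36 on the right, and that of the cascade at -0.15 and -0.07.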

How the data were processed

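RNA was measured by stranded mRNA sequencing of 12 libraries from 4 tissues. The authors aligned reads with STAR through RNAsik and counted them with featureCounts 1.6.2 over whole genes, introns included, on the gene's strand, on GRCg6a. The counts were deposited by the authors as whole numbers per gene, without normalization. Chromosome names were matched by symbol to RefSeq GRCg7b, in which all 10 symbols were found, and coordinates are those of the files.

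Libraries were grouped by tissue, as the columns name them. For 1 E5.5 duct sample the labels disagree, since its cell types are given as posterior kidney, and which of the 3 columns it is remains unknown. Counts were fitted in R 4.3.3 with edgeR 4.0.16 (quasi-likelihood test, TMM, filterByExpr) for 4 tissues and 11 libraries, with Benjamini-Hochberg adjustment over all 16603 tested genes. The SE is the absolute log2FC divided by the square root of F. The 95% intervals take the normal quantile times this SE on either side, so they are somewhat narrower than the F test implies. The paper leaves out 1 E4.5-Ant library without naming it, and the one left out here is the library with over 10% of counts on rRNA genes. The script was tested on simulated data. Figures were drawn with matplotlib 3.10.9 in Python 3.11.15.

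The members and lists were chosen with earlier results of these data known. All 10 members are described. From each list and comparison at most the 2 largest rises and 2 largest falls among called genes with at least 5 normalised CPM in the higher tissue could be named, and for each member the 3 genes of highest r. Alternatives were voom (limma 3.58.1), DESeq2 1.42.0, other normalizations and filters, all 12 libraries, a test against the fold limit and leaving out each library. Libraries are pools of different embryos within a tissue. Library numbers were checked as a pairing, with the left-out library included: correlations of same-numbered deviations were -0.30 to 0.47 over 18 pairs. For E4.5-Ant with E4.5-Post, cut from the same urogenital systems, they were -0.18 to 0.14. They were above 0.1 in all 3 pairs only for E5.5 duct with E4.5-Ant (0.10 to 0.47), whose embryos differ. The 0.47 was that of library 2 with library 2, each of which stood apart from the others of its tissue. Deviations within a tissue depend on each other, so these 3 pairs are not separate. The planned promoter motif search was not run, and no sequence was used here.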

Additional observations from a re-analysis of the deposited data

How the results depend on the processing

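The counts of called genes among the 10 kept to within 1.5 times under 11 of the 12 other settings, voom, DESeq2, all 12 libraries, 3 other scalings, 2 other filters, protein coding genes only, 2 tissues per fit and the replicate block among them. The exception was the test against the fold limit itself, which called 1 gene (ETV4) in E5.5 duct against E4.5-Post, 2 (ETV4 and ETV5) in E6.5 duct relative to E4.5-Post and 1 (ETV4) in E6.5 duct against E5.5 duct. It called 615, 1675, 2426, 949 and 220 genes of the whole table in the 5 comparisons in the order E4.5-Ant, E5.5 duct and E6.5 duct against E4.5-Post, E5.5 duct against E4.5-Ant and E6.5 duct against E5.5 duct, where the main test called 1785, 3420, 4197, 2161 and 1256. By construction it asks for more than a fold change at the limit. Leaving out 1 library at a time gave 0 to 0 called genes in E4.5-Ant against E4.5-Post, 2 to 3 in E5.5 duct against E4.5-Post, 4 to 5 in E6.5 duct against E4.5-Post, 2 to 2 in E5.5 duct against E4.5-Ant and 2 to 3 in E6.5 duct against E5.5 duct.

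SPRY2 in E6.5 duct against E4.5-Post was lost, just under the fold limit, with DESeq2, DESeq2 size factors, library size only and no filter on low counts (log2FC 0.58 in each), and with all 12 libraries (0.56). SPRY2 in E6.5 duct against E5.5 duct was gained without E5.5 duct library 3 (0.60). The directions that turned round all belong to values near 0 that were not called: ETV4 in E4.5-Ant against E4.5-Post (0.0087 with library size only, 0.0021 with 2 tissues per fit, 0.13 without E4.5-Ant library 1, the range of leaving out a library being -0.19 to 0.13, and 0.016 without E4.5-Post library 2), IL17RD in E5.5 duct against E4.5-Post (0.010 without E4.5-Post library 3, range -0.14 to 0.010), SPRY2 in E5.5 duct against E4.5-Post (-0.011 without E5.5 duct library 3, range -0.011 to 0.13) and SPRED1 in E5.5 duct against E4.5-Ant (-0.070 with all 12 libraries). The cause was not tested. The replicate block, with library numbers as pairs, gave 0, 2, 5, 2 and 2 called genes in the 5 comparisons and changed no call of the 10. Of 600 single fold changes under other settings, 587 kept direction and call, as did 539 of 550 when a library was left out. Each count covers pools of embryos, so p-values measure the spread between pools. With 86 to 226 reads, SPRY4 has the widest counting error of the 10.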
